A study of Mus musculus with 12 samples.

Results

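The comparison described here sets OP9 cells exposed to imatinib for 96 h against OP9 cells exposed for 32 h, 3 arrays in each group, so it takes 6 of the 12 arrays of the series. OP9 is an established mouse stromal line, labelled as mesenchymal stromal cells of newborn calvaria from B6C3F1 op/op mice, which lack functional Csf1, the macrophage growth factor. All groups are that 1 line, and the other groups are vehicle at 0 h and imatinib at 64 h, also with 3 arrays each. The vehicle hour is that of the sample labels. The text of the series speaks of vehicle or imatinib for 32 h, 64 h and 96 h, so how long the vehicle cells were cultured is uncertain. The imatinib dose is not given in the sources used here. Per the labels, both the vehicle and the 96 h arrays carry array label 1, and both the 32 h and the 64 h arrays carry array label 2. The label of the array and the time therefore cannot be told apart in this comparison, and group means of vehicle and of 64 h are given beside the results, with no test, so that a level can be read against both labels. The labels do not say whether replicates came from separate cultures, so every p-value measures the spread between these samples only.

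Imatinib blocks the tyrosine kinases ABL and KIT and both PDGF receptors, and it also binds the CSF1 receptor, the collagen receptors DDR1 and DDR2 and the oxidoreductase NQO2. Stromal cells of the bone marrow feed developing B cells and blood stem cells with secreted factors, chiefly the cytokine interleukin 7, the chemokine CXCL12 and the KIT ligand, and OP9 cells are used in culture for this support. They can also turn into fat-storing cells. PDGF receptor signalling in stromal cells runs through the ERK kinases to early transcription factors such as the AP-1 proteins, and on to the cyclins that start DNA replication.

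Of 45281 probes on the array, 18897 were detected on at least 3 of the 12 arrays, at a detection p-value below 0.05, and they gave a level for 10211 of the 19057 genes that have a probe. A level is a log2 intensity after background correction and quantile normalization, and a change is the mean level at 96 h minus that at 32 h, with its SE from limma's fit. Genes that passed limma's test (adjusted p under 0.05 over all kept probes) are said to have risen or fallen. Between 16162 and 17321 probes were detected per array, and the median raw intensity lay between 103.7 and 111 on these 6 arrays. Arrays of the same group correlated at r = 0.989 to 0.990 and arrays of different groups at r = 0.983 to 0.986. Of the 14 stromal markers measured, 1 fell (7.14%, against 2.46% of all genes) and none rose. The summed level of the 14 was 20246 to 21884 intensity units at 96 h and 21833 to 22548 at 32 h. The brightest probe of Thy1, a common stromal marker, was detected on no array of either group, nor were those of Nt5e, Ngfr and Anpep. Of 22 myeloid markers with a probe, 8 were measured. By the brightest probe of each gene, Lyz1 and Lyz2 were detected on all 6 arrays. Cd14 and Csf1r were detected on 3 of 3 at 32 h and 2 of 3 at 96 h. S100a8 went from 1 of 3 at 32 h to 3 of 3 at 96 h, Adgre1 from 1 to 2 and Aif1 from 0 to 1. Spi1 was detected on 1 of 3 in both groups. The brightest probes of the leukocyte gene Ptprc and the myeloid genes Itgam, Tyrobp, C1qa and C1qb were detected on none of the 6.

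From 32 h to 96 h, 287 genes rose, which is 2.81% of the 10211 measured, and 251 fell, which is 2.46%. Of these, 46 rose and 48 fell at least 2-fold. In 2384 genes (23.3%) the 3 arrays at 96 h and the 3 at 32 h did not overlap, and these include all 538 genes that passed. The median change over all measured genes was 0.0027 on the log2 scale, and the median SE was 0.15. The counts were lower whichever 1 of the 6 arrays was left out, with 174 to 201 increases and 157 to 179 decreases. Each such fit also has fewer arrays, and the cause of the drop was not tested. Without 96 h replicate 1, 181 genes rose and 157 fell, and without 96 h replicate 3, 177 rose. Without 32 h replicate 3, 174 rose and 162 fell, and without 32 h replicate 2, 167 fell. With a term for the array label and a straight line through the labelled hours over all 12 arrays, 229 of the 287 increases and 228 of the 251 decreases passed in the same direction.

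**Figure D1:**
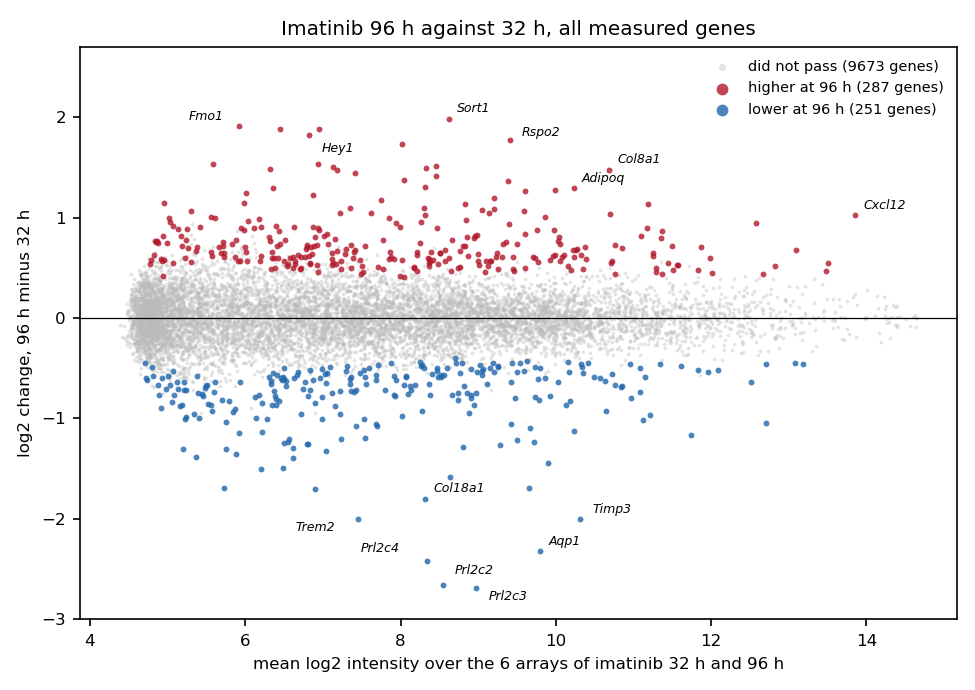
Change from 32 h to 96 h (log2, vertical axis) against the mean log2 intensity of the 6 arrays compared (horizontal axis), 1 point per measured gene. The 287 genes that rose are red, the 251 that fell are blue and the others grey; the proliferins Prl2c3, Prl2c2 and Prl2c4 lie lowest and Sort1 lies highest.

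Il7 and Cxcl12, of the factors by which stromal cells feed and hold lymphoid cells, rose between 32 h and 96 h. Il7, the cytokine that developing B cells need, read 9.60, 9.60 and 9.79 on the 96 h arrays and 8.68, 8.45 and 8.72 on the 32 h arrays. Cxcl12, the chemokine that retains blood stem cells and B cell precursors, read 14.35, 14.37 and 14.38 at 96 h and 13.21, 13.41 and 13.41 at 32 h. For both genes every array at 96 h lay above every array at 32 h. Il7 rose by 1.05 (SE 0.12, adjusted p = 7.41e-05, 2.07-fold) and Cxcl12 by 1.03 (SE 0.11, adjusted p = 4.14e-05, 2.04-fold). The vehicle means were 7.28 ± 0.12 for Il7 and 12.19 ± 0.07 for Cxcl12 (SD, n = 3), and the 64 h means were 9.23 ± 0.05 and 14.20 ± 0.08. Vehicle, on the same array label as 96 h, was thus the lowest of the 4 groups for both genes, and 64 h, on the same label as 32 h, lay above 32 h. The other 3 genes central to this support did not pass. Kitl, the ligand of KIT, changed by 0.18 (SE 0.18, adjusted p = 0.65), and Vcam1, the adhesion molecule that binds leukocytes, by -0.09 (SE 0.15, adjusted p = 0.82). Hes1, a repressor induced by Notch, read 6.30, 5.48 and 6.06 at 96 h and 4.96, 5.24 and 5.51 at 32 h. Its groups overlap, and its change of 0.71 (SE 0.22) had an adjusted p of 0.079. It passed in 4 of 21 alternatives: an offset of 50 (adjusted p = 0.035), trended and robust variances (0.037), the array label as a term (0.0070), and without 96 h replicate 2 (change 0.94, adjusted p = 0.024).

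Among 29 measured lymphoid and haematopoietic niche factors, 4 rose (13.8%, against 2.81% of all genes) and 1 fell (3.45%, against 2.46%), with a median change of 0.14. Besides Il7 and Cxcl12, the increases were Fgf10, a fibroblast growth factor that acts on epithelia, and Bmp4, a bone morphogenetic protein. Fgf10 read 8.88, 9.07 and 8.93 at 96 h and 7.65, 7.74 and 7.58 at 32 h, and it rose by 1.30 (SE 0.11, adjusted p = 4.45e-06). Bmp4 read 11.20, 11.24 and 11.21 at 96 h and 10.35, 10.02 and 10.16 at 32 h, and it rose by 1.04 (SE 0.12, adjusted p = 0.000103). The groups do not overlap in either gene. Dlk1, a membrane protein related to Notch ligands that holds back fat cell formation, fell by 0.55 (SE 0.11, adjusted p = 0.010). It no longer passed without 32 h replicate 2 (adjusted p = 0.053).

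The Wnt pathway rests on secreted Wnt proteins, on Frizzled receptors and on the R-spondins, secreted proteins that keep these receptors at the cell surface. Of 22 measured genes of this pathway, 3 rose (13.6%, against 2.81% of all genes) and 1 fell (4.55%, against 2.46%), with a median change of 0.07. Of the increases, 2 were R-spondins. Rspo2 read 10.21, 10.10 and 10.56 at 96 h and 8.75, 8.43 and 8.36 at 32 h. Rspo3 read 6.57, 6.33 and 6.15 at 96 h and 4.96, 4.52 and 4.95 at 32 h, where it was detected on 2 of 3 arrays. Rspo2 rose by 1.78 (SE 0.18, adjusted p = 2.61e-05) and Rspo3 by 1.54 (SE 0.17, adjusted p = 3.99e-05), and neither gene had overlapping groups. In vehicle, Rspo2 stood at 7.40 ± 0.26 and Rspo3, detected on 0 of 3 arrays, at 4.34 ± 0.11 (SD, n = 3). The receptor Fzd5 rose by 0.88 (SE 0.14, adjusted p = 0.0023). Dkk3, of the Dickkopf family of secreted proteins, fell by 0.44 (SE 0.11, adjusted p = 0.035), a call that ended when any 1 of 5 arrays was left out (adjusted p up to 0.127). The remaining 18, Wnt5a and Wnt5b among them, did not pass.

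Among 16 measured genes of the BMP pathway, 3 rose (18.8%, against 2.81% of all genes), 1 fell (6.25%, against 2.46%) and the median change was 0.14. The ligand Bmp4 and Id4, of the Id family of transcriptional inhibitors that BMP signals induce, rose, the latter by 0.76 (SE 0.14, adjusted p = 0.0044). Of the secreted antagonists, Fst, which binds activins and BMPs, rose by 0.72 (SE 0.12, adjusted p = 0.0024), whereas Chrd, which binds BMPs, fell by 0.78 (SE 0.14, adjusted p = 0.0039). Of 12 measured Notch pathway genes, Hey1 rose and Dlk1 fell (8.33% each, against 2.81% and 2.46% of all genes). Hey1, a repressor that Notch and BMP signals induce, read 7.74, 7.72 and 7.73 at 96 h and 6.10, 5.998 and 5.63 at 32 h. It rose by 1.82 (SE 0.16, adjusted p = 9.64e-06), with no overlap between the groups, from a vehicle mean of 5.09 ± 0.33 (SD, n = 3). The receptors Notch1, Notch3 and Notch4 and the ligands Dll1 and Jag1 did not pass.

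**Figure D2:**
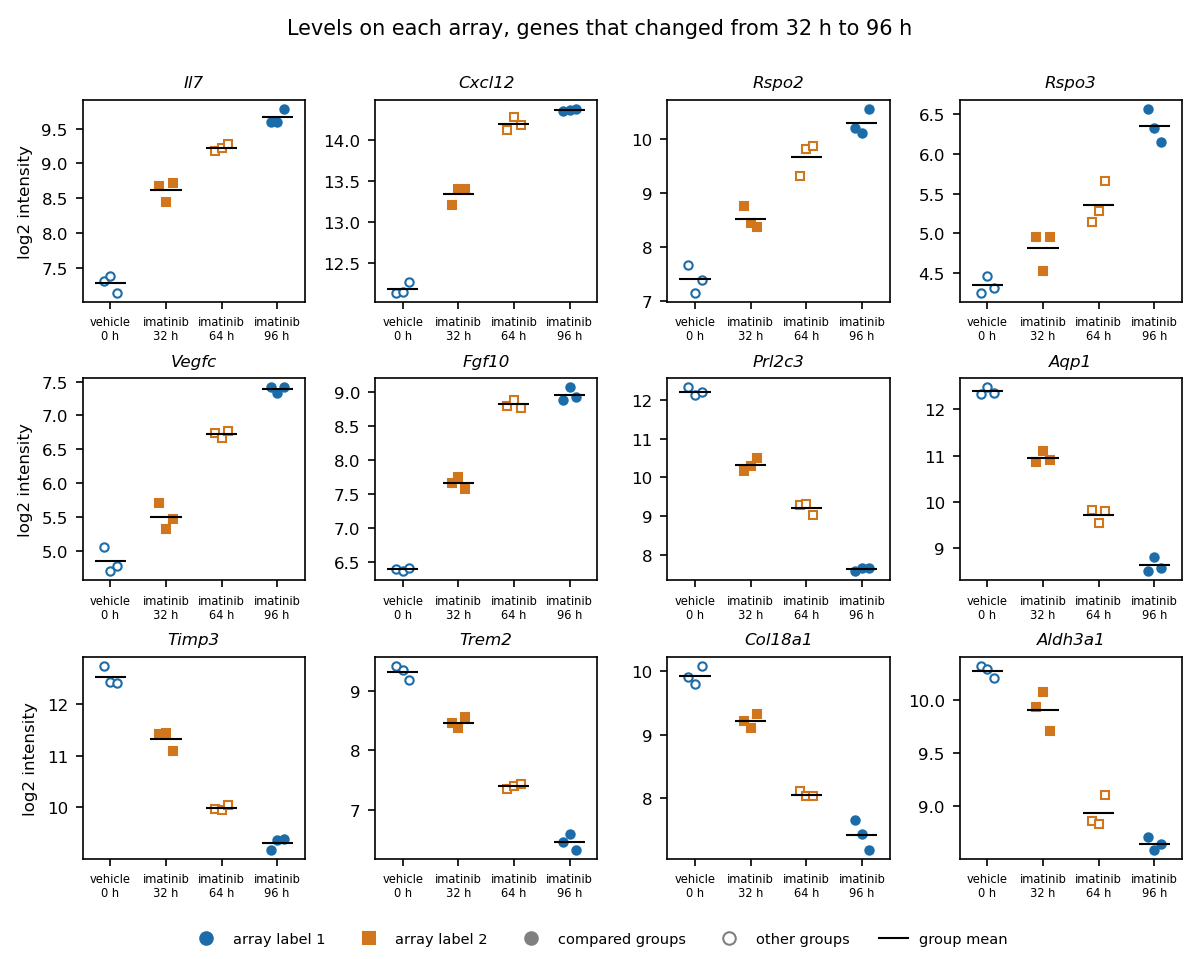
Log2 intensity on each of the 12 arrays (points) with the mean of each group (lines) for 12 genes that changed from 32 h to 96 h. Filled points are the 2 groups compared, blue circles are array label 1 and orange squares array label 2; in Il7 the arrays at 96 h read 9.60 to 9.79 and those at 32 h 8.45 to 8.72, and in Prl2c3 they read 7.58 to 7.66 and 10.17 to 10.50.

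Growth factors of fibroblasts and vessels included 4 increases (17.4%, against 2.81% of all genes) and 1 decrease (4.35%, against 2.46%) among 23 measured genes, with a median change of -0.04. Vegfc, the growth factor of lymphatic vessels, read 7.41, 7.33 and 7.41 at 96 h and 5.71, 5.32 and 5.47 at 32 h, and the groups lie far apart. It rose by 1.88 (SE 0.13, adjusted p = 8.09e-07), and in vehicle it was detected on 1 of 3 arrays. Its relative Vegfd rose by 0.44 (SE 0.11, adjusted p = 0.035), a change that no longer passed when any 1 of the 6 arrays was left out (adjusted p up to 0.133). Fgfr2, a receptor that in its epithelial form binds FGF10, rose by 1.27 (SE 0.12, adjusted p = 1.71e-05). Its 2 other probes changed by 0.15 and 0.64 and did not pass. Pdgfc, a ligand of the PDGF receptors, read 6.63, 6.83 and 6.68 at 96 h and 7.64, 7.65 and 7.49 at 32 h, with no overlap, and it fell by 0.88 (SE 0.11, adjusted p = 0.000247). Of 15 genes of the insulin-like growth factor axis, 1 rose and 1 fell (6.67% each, against 2.81% and 2.46% of all genes). Igfbp7, a secreted protein of the binding protein family, rose by 0.55 (SE 0.13, adjusted p = 0.022), and Pappa, a protease that cleaves such binding proteins, fell by 0.47 (SE 0.12, adjusted p = 0.034). With the array label as a term, the change of Pappa turned to 0.10, and without single arrays the adjusted p rose up to 0.083 for Igfbp7 and 0.104 for Pappa.

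The targets of imatinib themselves did not pass: with limma, 0 of 6 measured rose and 0 fell, and their median change was -0.04. An unadjusted p under 0.05 was found in 0 of the 6 and in 1859 of all 10211 measured genes. Pdgfra, the receptor that marks many stromal cells, read 10.91, 11.21 and 10.97 at 96 h and 10.48, 11.05 and 10.79 at 32 h. Its groups overlap and its change was 0.26 (SE 0.16, adjusted p = 0.45). The changes were 0.17 for Ddr1 (SE 0.18), 0.06 for Pdgfrb (SE 0.20), -0.15 for Nqo2 (SE 0.12), -0.22 for Ddr2 (SE 0.14) and -0.41 for Csf1r (SE 0.20), with adjusted p from 0.30 to 0.93. With the array label as a term and a straight line through the hours, Ddr1 (0.44, adjusted p = 0.012) and Nqo2 (-0.29, adjusted p = 0.012) passed, the only calls gained among these 6 in the 21 alternatives. The probes of Abl1, Abl2 and Kit were not detected on enough arrays to be measured.

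Among 29 measured response genes of growth factor receptors and ERK, 2 rose (6.90%, against 2.81% of all genes) and 3 fell (10.3%, against 2.46%), with a median change of -0.06. Jun, an AP-1 subunit, read 5.98, 6.002 and 6.09 at 96 h and 6.65, 6.69 and 6.60 at 32 h, and it fell by 0.63 (SE 0.12, adjusted p = 0.0057). Hmga2, a chromatin protein of growing mesenchymal cells, fell by 0.72 (SE 0.17, adjusted p = 0.025), and Ccnd1, cyclin D1, fell by 0.46 (SE 0.12, adjusted p = 0.039). Both calls ended without single arrays, with an adjusted p of up to 0.107 for Hmga2 and 0.158 for Ccnd1. Sphk1, the kinase that makes sphingosine 1-phosphate, rose by 1.07 (SE 0.13, adjusted p = 0.000114), and Phlda1, a growth factor response gene, by 0.80 (SE 0.14, adjusted p = 0.0040). The Sprouty genes Spry2 and Spry4, the phosphatase genes Dusp4, Dusp5 and Dusp6 and the early genes Fos and Egr1 did not pass. In limma's test, an unadjusted p under 0.05 was found in 15 of the 29 and in 1859 of all 10211 measured genes.

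Among the proliferins, placental hormones of the prolactin family that cultured mouse fibroblasts also secrete, Prl2c3, Prl2c2 and Prl2c4 gave the largest decreases. All 4 measured members fell (100%, against 2.46% of all genes), with a median change of -2.54. Prl2c3 read 7.58, 7.66 and 7.66 at 96 h and 10.17, 10.30 and 10.50 at 32 h. Prl2c2 read 7.11, 7.44 and 7.08 at 96 h and 9.80, 9.91 and 9.90 at 32 h. Prl2c4 read 7.27, 7.05 and 7.09 at 96 h and 9.47, 9.53 and 9.67 at 32 h. In each the groups lie more than 2 log2 units apart. Prl2c3 fell by 2.69 (SE 0.13, adjusted p = 1.83e-08, 6.45-fold), Prl2c2 fell by 2.66 (SE 0.13, adjusted p = 2.13e-08, 6.31-fold) and Prl2c4 fell by 2.42 (SE 0.12, adjusted p = 2.13e-08, 5.35-fold). Prl2c1 was detected on all 3 arrays at 32 h and on 0 of 3 at 96 h, so it was at least 2.01-fold lower (adjusted p = 0.0031), measured against the lowest signal detected on each array or its own reading where that was higher. The family was ordered in the same way over all 4 groups: for Prl2c3, the group means were 12.21 ± 0.10 in vehicle, 10.32 ± 0.17 at 32 h, 9.20 ± 0.15 at 64 h and 7.63 ± 0.05 at 96 h (SD, n = 3). These genes are close copies of each other, so a probe of one can bind the RNA of another and the 4 decreases are not independent.

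Promoters from 250 bases before to 50 after the annotated start were read from RefSeq for build GRCm38.p6 and searched on both strands for the AP-1 site TGANTCA, because the proliferins fell together. No window was available for Prl2c1, Prl2c2 and Prl2c4, so of the proliferins only Prl2c3 was searched. Of the genes that fell, 197 of 251 had such a window and 28 of them (14.2%) held the letters. The shares were 4.57% of the 219 windows of genes that rose, 6.38% of the 8321 windows of measured genes and 8.97% of the 27025 genes of the table. Prl2c3 and Trem2, which also fell, each held 1 match, 209 and 9 bases before the start, shown in capitals. A match of letters is a description and does not show that a factor bound there.
Prl2c3, chr13:12800030-12800329, minus strand: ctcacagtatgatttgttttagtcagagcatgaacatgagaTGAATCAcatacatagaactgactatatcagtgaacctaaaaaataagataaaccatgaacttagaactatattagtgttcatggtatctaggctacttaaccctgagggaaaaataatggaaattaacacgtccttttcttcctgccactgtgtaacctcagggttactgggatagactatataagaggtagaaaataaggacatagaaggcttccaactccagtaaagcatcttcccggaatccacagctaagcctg
Trem2, chr17:48346151-48346450, plus strand: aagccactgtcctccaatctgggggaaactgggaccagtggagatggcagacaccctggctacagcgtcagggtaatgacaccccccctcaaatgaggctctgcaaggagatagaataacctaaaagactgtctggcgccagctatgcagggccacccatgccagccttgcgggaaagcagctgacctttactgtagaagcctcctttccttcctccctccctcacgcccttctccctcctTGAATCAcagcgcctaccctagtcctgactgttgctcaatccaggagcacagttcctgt

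After Prl2c3, Prl2c2 and Prl2c4, the next decreases by size were Aqp1, Timp3 and Trem2. Aqp1, a water channel, read 8.51, 8.82 and 8.57 at 96 h and 10.87, 11.10 and 10.90 at 32 h and fell by 2.32 (SE 0.13, adjusted p = 7.33e-08). Its 2 other probes changed by -1.89 and -2.18 and also passed. Trem2, a receptor known from macrophages and osteoclasts that signals through the adaptor TYROBP, read 6.46, 6.58 and 6.33 at 96 h and 8.45, 8.37 and 8.55 at 32 h, and it fell by 2.00 (SE 0.12, adjusted p = 1.46e-07). The groups of both genes lie apart, and the brightest probe of Tyrobp was detected on none of these 6 arrays. Other decreases among the 15 largest were Anxa8, an annexin (-1.71), Adssl1, an adenylosuccinate synthase (-1.70), and Prkg2, a kinase activated by cyclic GMP (-1.69, detected on 2 of 3 arrays at 96 h). Cdsn, an adhesion protein of skin (-1.58), Apol9a, an apolipoprotein L (-1.50), Cdh13, a cadherin without a cytoplasmic part (-1.49), Sncg, gamma-synuclein (-1.45), and Neurl1a, a ubiquitin ligase (-1.40), complete the set with Col18a1 and Timp3, described with the matrix genes. For these 15 genes, 35.9 to 66.4% of the change on the log2 scale (median 52.8%) had taken place by 64 h, which is on the array label of 32 h.

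Among the matrix genes, some members of each group rose and others fell. Of 31 genes of collagens and their processing, 2 rose (6.45%, against 2.81% of all genes), 3 fell (9.68%, against 2.46%) and the median change was 0.09. Col8a1, a short-chain collagen of vessel walls, read 11.29, 11.55 and 11.42 at 96 h and 9.64, 10.19 and 10.002 at 32 h. It rose by 1.48 (SE 0.14, adjusted p = 1.45e-05) with no overlap, and its vehicle mean of 10.17 ± 0.05 (SD, n = 3) lay near that at 32 h, 9.94 ± 0.28. Col18a1, the basement membrane collagen from which endostatin is cut, read 7.65, 7.42 and 7.18 at 96 h and 9.21, 9.11 and 9.32 at 32 h and fell by 1.80 (SE 0.14, adjusted p = 1.36e-06). Its other probe changed by -0.35 and did not pass. Col15a1, a relative of Col18a1, fell by 0.96 (SE 0.15, adjusted p = 0.0014), and Col7a1, the collagen of anchoring fibrils, by 1.04 (SE 0.16, adjusted p = 0.0015). Col4a2, of basement membranes, rose by 0.61 (SE 0.14, adjusted p = 0.025), a call that was lost when any 1 of 5 arrays was left out (adjusted p up to 0.104). The fibrillar collagen genes Col1a1, Col1a2, Col3a1 and Col5a1 did not pass.

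Of 34 matrix glycoproteins and proteoglycans, 4 rose (11.8%, against 2.81% of all genes) and 3 fell (8.82%, against 2.46%), with a median change of 0.05. Thbs1, thrombospondin 1, which also frees TGF-beta from its latent form, read 9.07, 8.78 and 8.80 at 96 h and 7.23, 7.12 and 7.09 at 32 h and rose by 1.73 (SE 0.16, adjusted p = 1.06e-05). Mfap5, a microfibril protein, rose by 1.44 (SE 0.14, adjusted p = 1.71e-05), and Nid2, a basement membrane linker, by 1.04 (SE 0.11, adjusted p = 3.99e-05). Fbln2, of elastic fibres, fell by 1.01 (SE 0.12, adjusted p = 9.21e-05), and Sparcl1, of the SPARC family, fell by 1.31 (SE 0.16, adjusted p = 0.000106). Among 20 measured genes of TGF-beta ligands, binding proteins and targets, 2 rose (10%, against 2.81% of all genes) and 3 fell (15%, against 2.46%), and the median change was -0.07. Tgfb3, a ligand, rose by 0.90 (SE 0.16, adjusted p = 0.0038). Ltbp1, which binds latent TGF-beta, fell by 0.75 (SE 0.18, adjusted p = 0.027), Skil, a repressor of SMAD proteins, by 0.50 (SE 0.13, adjusted p = 0.041), and Tgfbi, a matrix protein that TGF-beta induces, was detected on 0 of 3 arrays at 96 h and was at least 1.43-fold lower (adjusted p = 0.030). These 3 decreases ended without single arrays (adjusted p up to 0.103, 0.143 and 0.116), and the 3 other probes of Ltbp1 changed by -0.07 to 0.17.

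Both decreases among the 25 metalloproteinases and their inhibitors were inhibitors, and both increases were ADAMTS proteases. Timp3, which binds to the matrix, read 9.19, 9.37 and 9.38 at 96 h and 11.42, 11.43 and 11.10 at 32 h and fell by 2.00 (SE 0.13, adjusted p = 4.78e-07). Timp1, a secreted inhibitor, read 11.18, 11.16 and 11.15 at 96 h and 12.39, 12.40 and 12.18 at 32 h and fell by 1.16 (SE 0.12, adjusted p = 2.01e-05). Neither gene had overlapping groups, and vehicle was higher still, at 12.52 ± 0.18 for Timp3 and 13.15 ± 0.10 for Timp1 (SD, n = 3). Adamts9 rose by 0.90 (SE 0.16, adjusted p = 0.0038) and Adamts1 by 0.71 (SE 0.16, adjusted p = 0.020). Their other probes changed by 0.00 and -0.04, and Adamts1 no longer passed when any 1 of 3 arrays was left out (adjusted p up to 0.088). Timp2, Mmp2, Mmp3, Mmp9 and Mmp14 did not pass, and the median change over the 25 genes was 0.05, with 8% rising and 8% falling against 2.81% and 2.46% of all genes.

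Cell adhesion to the matrix, 20 genes of integrins and their partners, gave 3 increases (15%, against 2.81% of all genes) and 1 decrease (5%, against 2.46%), with a median change of -0.02. Itga1, an integrin subunit that binds collagen, read 7.74, 7.85 and 7.51 at 96 h and 6.21, 6.28 and 6.01 at 32 h and rose by 1.54 (SE 0.16, adjusted p = 3.47e-05). Itga2, the second such subunit, was detected on 1 of 3 arrays at 32 h and 3 of 3 at 96 h and rose by 0.58 (SE 0.13, adjusted p = 0.019). Itga5, the subunit of the fibronectin receptor, fell by 0.71 (SE 0.12, adjusted p = 0.0031), while its other probe changed by -0.13. Tln2, talin 2, which ties integrins to actin, rose by 0.65 (SE 0.17, adjusted p = 0.045). The calls of Itga2 and Tln2 ended without single arrays, with adjusted p up to 0.089 and 0.155. Among 36 genes of the contractile cytoskeleton and YAP or SRF targets, 2 rose, 2 fell (5.56% each, against 2.81% and 2.46% of all genes) and the median change was 0.02. Fhl2, a LIM domain cofactor, rose by 0.94 (SE 0.15, adjusted p = 0.0014) and Actg2, a smooth muscle actin, by 0.72 (SE 0.13, adjusted p = 0.0055). Axl, a receptor kinase, fell by 0.80 (SE 0.11, adjusted p = 0.000478) and Tagln2, a transgelin, by 0.63 (SE 0.14, adjusted p = 0.020; up to 0.090 without single arrays). Cd44, the hyaluronan receptor and the stromal marker that fell, read 9.79, 9.82 and 9.70 at 96 h and 10.56, 10.60 and 10.63 at 32 h and fell by 0.83 (SE 0.11, adjusted p = 0.000282), although 1 of its 3 other probes changed by 0.03.

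**Figure D3:**
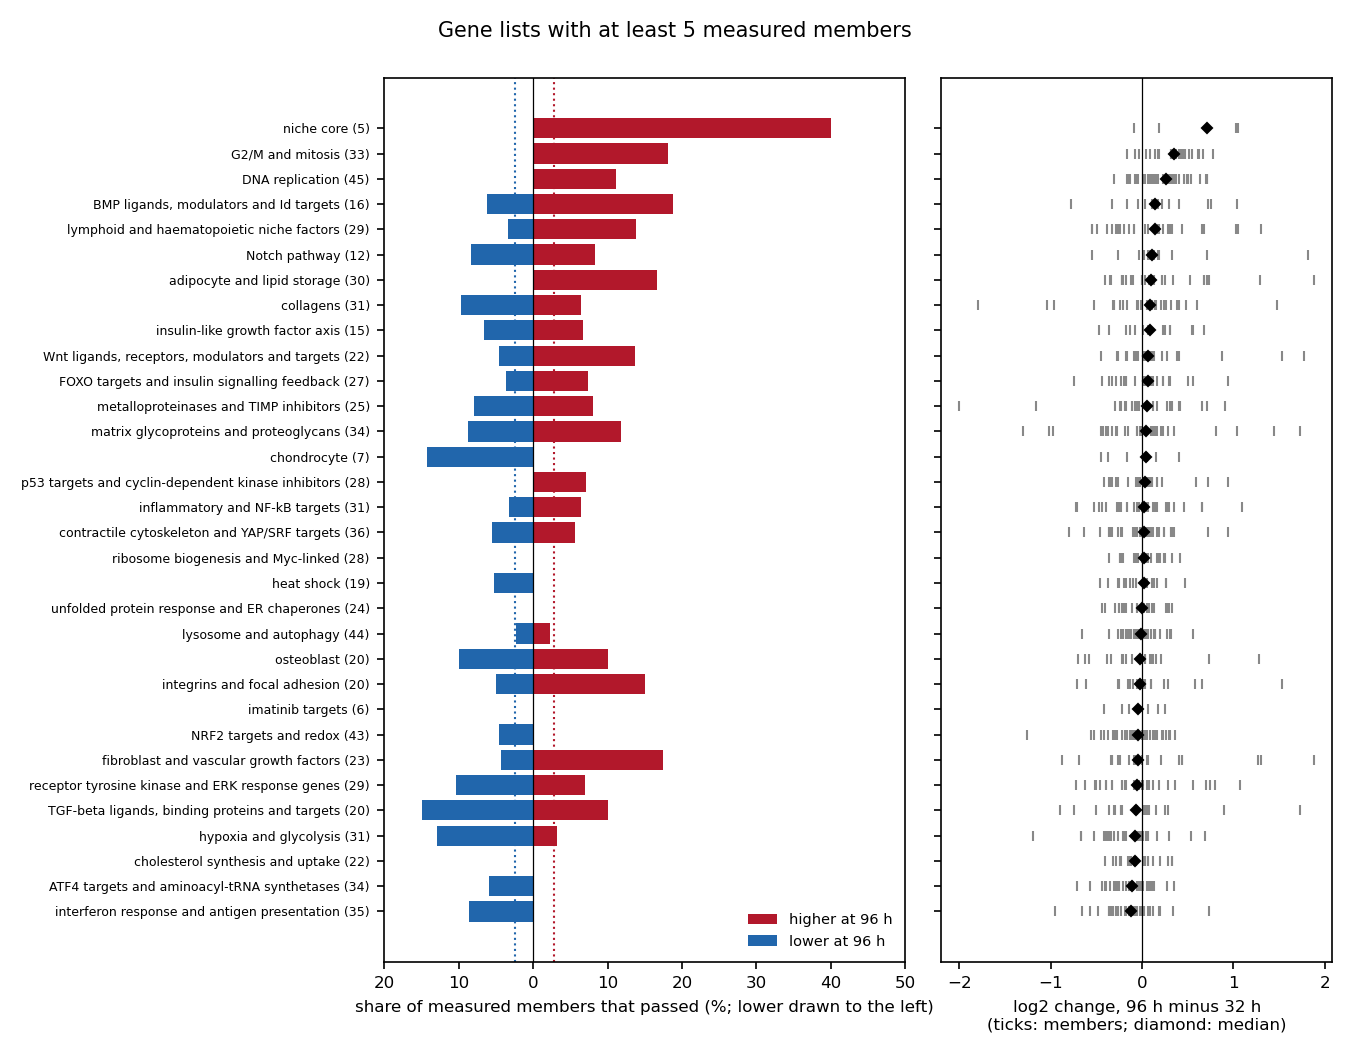
Pathway gene lists with at least 5 measured members, ordered by median change, with the number measured in brackets. The lists of cell type markers are not drawn. The left panel gives the share of members that rose (red, to the right) or fell (blue, to the left), with dotted lines at 2.81% and 2.46% of all genes, and the right panel gives each member's log2 change (ticks) and the median (diamonds); DNA replication and G2/M lie near the top with 0 members that fell.

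Genes of fat storage rose where they changed: 5 of 30 measured rose (16.7%, against 2.81% of all genes), 0 fell, and the median change was 0.10. Adipoq, the hormone adiponectin, read 10.87, 10.92 and 10.83 at 96 h and 9.61, 9.60 and 9.53 at 32 h and rose by 1.30 (SE 0.11, adjusted p = 4.64e-06). Rbp4, the carrier of retinol in blood, read 7.93, 7.86 and 7.89 at 96 h and 6.11, 5.95 and 5.97 at 32 h and rose by 1.88 (SE 0.18, adjusted p = 1.3e-05). Lpl, the lipase that frees fatty acids from lipoproteins, rose by 0.68 (SE 0.12, adjusted p = 0.0040), and its 64 h mean of 13.42 ± 0.12 equalled that at 96 h, 13.43 ± 0.03 (SD, n = 3), within the spread. Aqp7, a glycerol channel, rose by 0.73 (SE 0.17, adjusted p = 0.022), and Cd36, a fatty acid transporter, by 0.72 (SE 0.17, adjusted p = 0.025), and both calls ended without single arrays (adjusted p up to 0.094 and 0.107). The master regulators Pparg and Cebpa and the lipid droplet genes Plin2 and Plin4 did not pass. Of 22 cholesterol genes, 0 rose and 0 fell in limma's test, and 4 had an unadjusted p under 0.05. Over all genes, 1859 of the 10211 measured had such an unadjusted p.

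Of 20 osteoblast genes, 2 rose and 2 fell (10% each, against 2.81% and 2.46% of all genes), with a median of -0.02. Tnfrsf11b, osteoprotegerin, which blocks osteoclast formation, read 10.69, 10.65 and 10.55 at 96 h and 9.24, 9.54 and 9.27 at 32 h and rose by 1.28 (SE 0.15, adjusted p = 0.000113). Sp7, the osteoblast regulator osterix, rose by 0.74 (SE 0.13, adjusted p = 0.0028). Dlx3, a homeobox gene, fell by 0.70 (SE 0.15, adjusted p = 0.015) and Bglap2, an osteocalcin gene, by 0.59 (SE 0.14, adjusted p = 0.026). Without single arrays the adjusted p rose up to 0.070 for Dlx3 and 0.106 for Bglap2. Of 7 cartilage genes, 1 fell (14.3%, against 2.46% of all genes) and 0 rose. The gene was Sox5, which fell by 0.45 (SE 0.12, adjusted p = 0.038, up to 0.152 without single arrays).

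All genes of DNA replication and of mitosis that passed were higher at 96 h than at 32 h, and the medians of both lists at 96 h stood near the vehicle level. Of 45 measured replication genes 5 rose and 0 fell, with a median change of 0.26, and of 33 measured G2/M genes 6 rose and 0 fell, with a median of 0.35. Over both lists, 11 of 78 rose (14.1%, against 2.81% of all genes). Of the 78 changes, 68 were above 0, against 5159 of all 10211 measured genes. Cdc6, which loads the replicative helicase, read 6.75, 6.73 and 6.80 at 96 h and 6.13, 6.04 and 5.97 at 32 h and rose by 0.71 (SE 0.12, adjusted p = 0.0025). Prc1, which bundles the microtubules of the spindle midzone, read 10.68, 10.48 and 10.74 at 96 h and 9.91, 9.96 and 10.15 at 32 h and rose by 0.63 (SE 0.12, adjusted p = 0.0064). Neither had overlapping groups. Kif11, a spindle motor, rose by 0.66 (SE 0.14, adjusted p = 0.0098). The replication genes Mcm10, Mcm5, Ccne2 and Rrm1 rose by 0.64, 0.50, 0.70 and 0.50, and the mitotic genes Ndc80, Kif2c and Aurka by 0.77, 0.61 and 0.51. Those 7 calls ended without at least 1 of the single arrays, with adjusted p up to 0.137. The sixth mitotic gene, the kinase Plk1 (0.55), was named after its value had been seen.

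The array label moves with these cell cycle genes. For Cdc6 the group means were 6.62 ± 0.12 in vehicle, 6.05 ± 0.08 at 32 h, 6.27 ± 0.16 at 64 h and 6.76 ± 0.03 at 96 h (SD, n = 3), and for Prc1 they were 10.61 ± 0.08, 10.01 ± 0.12, 10.27 ± 0.07 and 10.63 ± 0.14. Both groups of array label 1 were thus above both groups of array label 2. Over the 78 genes, the median difference from vehicle was -0.33 at 32 h, -0.30 at 64 h and -0.05 at 96 h, and the median difference of 64 h from 32 h, within array label 2, was 0.04. With the array label as a term and a straight line through the hours, 0 replication genes rose and 2 fell (median change -0.01), 0 mitotic genes rose or fell (median -0.04), and Mcm5 turned to -0.11. A straight line cannot follow a dip at 32 h and 64 h with a return at 96 h, so this fit also removes such a course, and the label and the time cannot be told apart here. By contrast, the cyclin D1 gene Ccnd1 was at 13.46 ± 0.02 in vehicle and 12.93, 12.41 and 12.48 at 32 h, 64 h and 96 h.

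**Figure D4:**
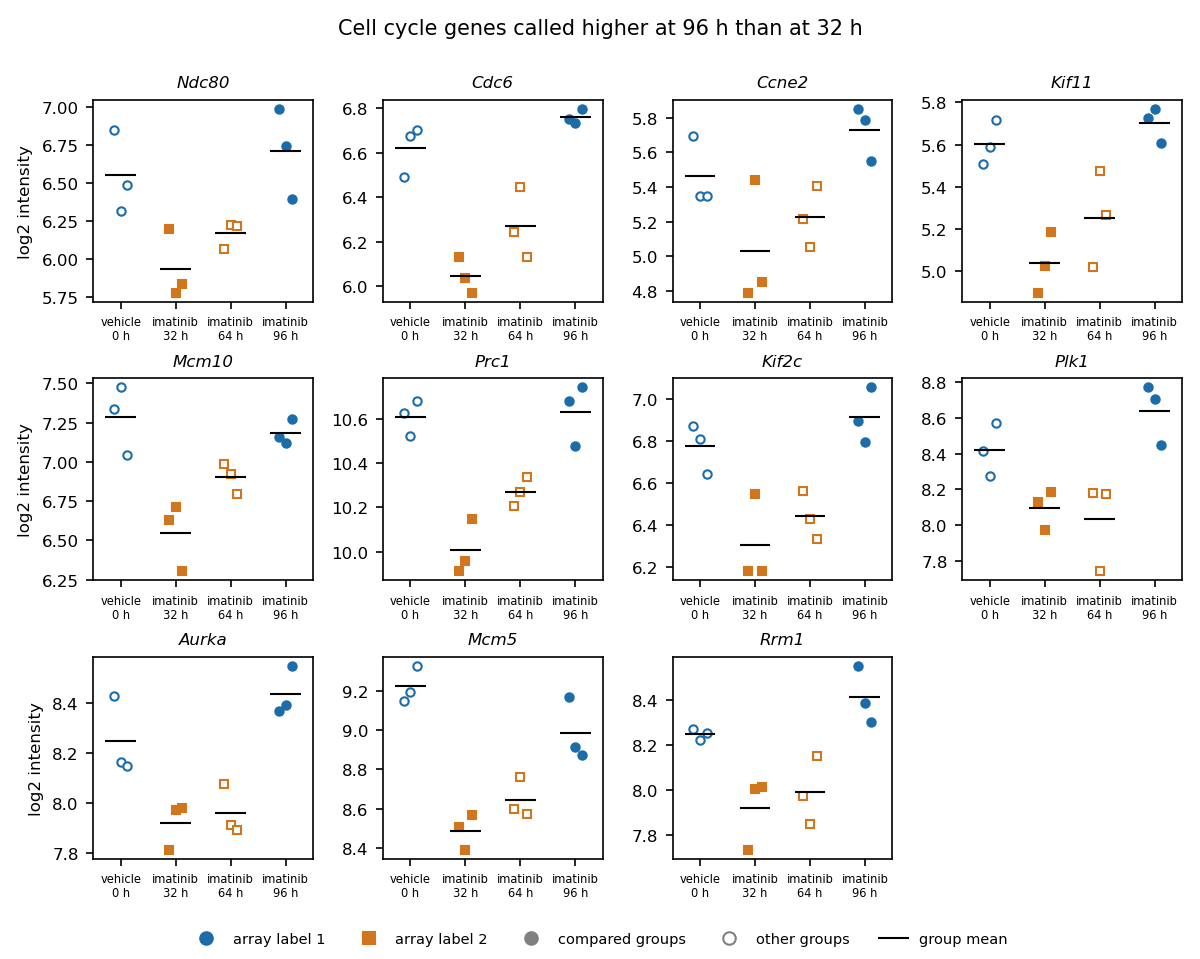
Log2 intensity on each array (points) and group means (lines) of the 11 replication and mitosis genes that rose from 32 h to 96 h. Blue circles are array label 1 (vehicle, 96 h) and orange squares array label 2 (32 h, 64 h); for Cdc6 the means are 6.62, 6.05, 6.27 and 6.76 from vehicle to 96 h.

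Promoters of cell cycle genes often carry E2F sites, read in S phase genes, or the CHR element, read in mitotic genes. Of the 78 genes, 63 had a promoter window, of which 16 (25.4%) held the E2F letters TTTNNCGC and 27 (42.9%) the CHR letters TTTGAA on either strand. Over all 27025 genes of the table these shares were 5.93% and 20.2%, and over the measured genes 9.84% and 14.5%. Of the 10 with a window among the 11 that rose, 2 held the E2F letters and 6 the CHR letters. The 78 genes were listed as cell cycle genes, so their shares describe that list and not the change. Among all genes that rose, 10.05% of 219 windows held the E2F letters and 22.4% the CHR letters. Among all that fell, the shares of 197 windows were 5.58% and 16.75%. Cdc6 held an E2F match 138 bases before the start and Kif11 a CHR match 19 bases before it, both on the reverse strand of the gene and in capitals below.
Cdc6, chr11:98907901-98908200, plus strand: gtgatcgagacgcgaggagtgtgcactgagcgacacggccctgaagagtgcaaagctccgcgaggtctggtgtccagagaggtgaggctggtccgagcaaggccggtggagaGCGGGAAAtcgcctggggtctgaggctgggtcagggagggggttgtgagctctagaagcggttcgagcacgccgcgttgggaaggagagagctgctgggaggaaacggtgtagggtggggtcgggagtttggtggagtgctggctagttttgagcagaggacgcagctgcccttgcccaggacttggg
Kif11, chr19:37376132-37376431, plus strand: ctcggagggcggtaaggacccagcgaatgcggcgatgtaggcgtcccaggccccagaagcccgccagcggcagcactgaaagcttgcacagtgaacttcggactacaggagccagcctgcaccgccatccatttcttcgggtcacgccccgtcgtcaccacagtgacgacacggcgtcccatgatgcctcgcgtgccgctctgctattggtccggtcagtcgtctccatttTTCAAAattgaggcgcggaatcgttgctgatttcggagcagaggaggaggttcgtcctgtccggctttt

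Of 28 p53 targets and inhibitors of cyclin-dependent kinases, 2 rose (7.14%, against 2.81% of all genes) and 0 fell, with a median of 0.03, and Cdkn1a, Cdkn1b and Mdm2 did not pass. Gadd45a, a growth arrest and DNA damage gene, read 8.44, 8.19 and 8.61 at 96 h and 7.51, 7.39 and 7.50 at 32 h and rose by 0.94 (SE 0.14, adjusted p = 0.0011). Its relative Gadd45g rose by 0.59 (SE 0.13, adjusted p = 0.017; up to 0.079 without single arrays). Of 27 FOXO targets and insulin feedback genes, 2 rose (7.41%, against 2.81% of all genes) and 1 fell (3.70%, against 2.46%). Gadd45a and Pik3r1, a regulatory subunit of PI3 kinase, rose, the latter by 0.56 (SE 0.12, adjusted p = 0.015, up to 0.068 without single arrays). Trib2, a pseudokinase, fell by 0.75 (SE 0.13, adjusted p = 0.0038).

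Of 31 hypoxia and glycolysis genes 4 fell (12.9%, against 2.46% of all genes) and 1 rose (3.23%, against 2.81%), with a median of -0.08. Eno3, an enolase, read 6.89, 6.99 and 6.96 at 96 h and 8.33, 8.20 and 7.90 at 32 h and fell by 1.20 (SE 0.13, adjusted p = 4.14e-05). Pkm, pyruvate kinase, fell by 0.67 (SE 0.11, adjusted p = 0.0025), Pfkfb4, which sets the rate of glycolysis, by 0.66 (SE 0.13, adjusted p = 0.0072), and Eno2 by 0.53 (SE 0.14, adjusted p = 0.045; up to 0.174 without single arrays). The other probe of Pkm changed by -0.22 and did not pass. Ppp1r3c, which directs a phosphatase to glycogen, rose by 0.69 (SE 0.12, adjusted p = 0.0025). Of 43 NRF2 and redox genes, 2 fell (4.65%, against 2.46% of all genes) and 0 rose. Aldh3a1, an aldehyde dehydrogenase, read 8.71, 8.59 and 8.64 at 96 h and 9.94, 10.08 and 9.71 at 32 h and fell by 1.26 (SE 0.13, adjusted p = 2.2e-05), and Cbr3, a carbonyl reductase, fell by 0.56 (SE 0.15, adjusted p = 0.044; up to 0.170 without single arrays). Of 34 ATF4 targets and tRNA synthetases, 2 fell (5.88%, against 2.46%) and 0 rose. Chac1, which degrades glutathione, fell by 0.71 (SE 0.12, adjusted p = 0.0034) and Aldh18a1, of proline synthesis, by 0.57 (SE 0.13, adjusted p = 0.023; up to 0.099 without single arrays). Among 19 heat shock genes, 1 fell (5.26%, against 2.46% of all genes) and 0 rose. The cochaperone Bag3 fell by 0.46 (SE 0.11, adjusted p = 0.031, up to 0.121 without single arrays). None of 24 genes of the unfolded protein response and none of 28 of ribosome biogenesis passed limma's test. Of these, 5 and 3 had an unadjusted p under 0.05, against 1859 of all 10211 measured genes.

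Of 35 interferon and antigen presentation genes, 3 fell (8.57%, against 2.46% of all genes) and 0 rose, with a median of -0.12. H2-D1, a class I molecule, fell by 0.66 (SE 0.15, adjusted p = 0.017), Ifitm3, which blocks virus entry, by 0.48 (SE 0.12, adjusted p = 0.031), and the chemokine Ccl5, detected on 0 of 3 arrays at 96 h, was at least 1.19-fold lower (adjusted p = 0.022). All 3 calls ended without single arrays (adjusted p up to 0.077, 0.098 and 0.090), and the other probe of H2-D1 changed by 0.08. Of 31 inflammatory genes, 2 rose (6.45%, against 2.81% of all genes) and 1 fell (3.23%, against 2.46%). Ptx3, a soluble pattern recognition protein, read 8.04, 7.95 and 7.70 at 96 h and 6.66, 6.86 and 6.88 at 32 h and rose by 1.09 (SE 0.14, adjusted p = 0.000144). Nfkbia, the inhibitor of NF-kB, rose by 0.46 (SE 0.12, adjusted p = 0.038) and Relb, an NF-kB subunit, fell by 0.53 (SE 0.14, adjusted p = 0.039), with adjusted p up to 0.156 and 0.139 without single arrays. Of 44 lysosome and autophagy genes, 1 rose and 1 fell (2.27% each, against 2.81% and 2.46% of all genes). Grn, progranulin, rose by 0.56 (SE 0.12, adjusted p = 0.011, up to 0.057 without single arrays), and Ctsh, cathepsin H, fell by 0.65 (SE 0.14, adjusted p = 0.011, up to 0.057).

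Outside these groups, Sort1, a sorting receptor of the Golgi and endosomes, gave the largest increase. It read 9.65, 9.62 and 9.57 at 96 h and 7.45, 7.56 and 7.88 at 32 h, with no overlap, and it rose by 1.99 (SE 0.14, adjusted p = 8.45e-07, 3.97-fold). One of its 2 other probes rose by 2.13 and passed, and the second changed by 0.21. Fmo1, a flavin monooxygenase, read 7.07, 6.71 and 6.85 at 96 h and 4.94, 4.75 and 5.20 at 32 h, where it was detected on 2 of 3 arrays, and it rose by 1.91 (SE 0.16, adjusted p = 3.85e-06). Palmd, of the paralemmin family, rose by 1.51, Prag1, a scaffold protein, by 1.49, and Rasl11a, a Ras-like GTPase, by 1.47. For the 15 largest increases, 35.8 to 78.6% of the change (median 64.8%) had taken place by 64 h.

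Both lysozyme genes rose, and lysozyme is also a marker of myeloid cells. Lyz1 read 9.12, 9.04 and 9.06 at 96 h and 7.47, 7.61 and 7.65 at 32 h and rose by 1.49 (SE 0.14, adjusted p = 1.43e-05), and Lyz2 rose by 1.502 (SE 0.15, adjusted p = 2.13e-05). The 2 genes are near copies of each other, so their probes can share signal. The summed level of the 8 measured myeloid markers was 944 to 963 intensity units at 96 h and 463 to 504 at 32 h. The lysozymes made up 769 to 779 units of it at 96 h and 261 to 283 at 32 h, while the other 6 markers summed to 172 to 194 units at 96 h and 188 to 225 at 32 h. None of those 6 (Cd14, Csf1r, S100a8, Adgre1, Aif1 and Spi1) passed. A further 14 with a probe were not measured, including Ptprc and Itgam, whose brightest probes were detected on 0 of 6 arrays. In bulk RNA, more cells of a type and more RNA per cell cannot be told apart. Of the measured markers of B lymphoid (2), endothelial (2), muscle (2), epithelial (3) and erythroid cells (4), none passed.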

How the data were processed

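Intensity values of all 12 arrays came from the deposited non-normalized table, which per the file headers gives a signal intensity and a detection p-value for each probe. The submitters' processing notes name limma, without version or settings. In R 4.3.3 with limma 3.58.1, neqc used the detection p-values for background correction (offset 16), normalized the arrays by quantiles and took log2. The deposited normalized intensity values differ from these by at most 0.0193 on the log2 scale. Probes with 1 gene symbol (34885; 18 list several and 10378 none) stand for genes, each by its brightest kept probe. limma fitted 4 group means to 12 arrays (8 residual degrees of freedom), with Benjamini-Hochberg adjustment over the kept probes. Named were the 15 largest changes each way among called genes without overlap, up to 5 called members per list with the smallest p, the imatinib targets and 5 niche genes. The members, lists and naming rule were chosen with earlier results of these data known. The alternatives are given with their counts further on. On simulated data of 18897 probes, the fit recovered 44% of 1.5-fold, 82% of 2-fold and 100% of 4-fold changes. The simulation changed 50 probes per fold size, drew independent noise for each probe, and called 7 unchanged probes. In the data 457 probes were called higher and 416 lower, and recovery depends on how many probes change, so it can differ there. The replicate numbers in the titles are not stated to pair samples, so they were not taken to do so. Deviations from the group means correlated at 0.055, 0.0021 and 0.017 between same-numbered arrays of 96 h and 32 h. Between differently numbered arrays they correlated at -0.042 to 0.025. With 3 arrays per group these values cannot decide whether samples were paired.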

Additional observations from a re-analysis of the deposited data

How the results depend on the processing

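The counts of genes that rose and fell, 287 and 251, became 469 and 424 without background correction, 443 and 378 with an offset of 50, and 446 and 402 with trended and robust variances. They became 308 and 225 with median scaling, 306 and 247 with each array label normalized on its own, 207 and 165 with only the 6 arrays compared, 273 and 245 with no filter, 363 and 327 with a strict filter, 287 and 250 with the deposited normalized values, 351 and 294 with probes averaged per gene, and 270 and 245 with array weights. With the replicate number as a block (replicate block) they were 260 and 234. A test against a 1.5-fold change left 28 and 28. With the array label as a term and a straight line through the hours they were 853 and 830, with 6 of the 538 original calls turned in sign. Leaving out 1 array at a time gave 174 to 201 increases and 157 to 179 decreases, and leaving out replicate 3 of both 32 h and 64 h gave 171 and 161. Of 114 named genes that passed, 38 passed the 1.5-fold test, and 71 passed in all 20 other alternatives. Of the other 43, 40 fell below the threshold without at least 1 single array. Calls were gained by Hes1 in 4 alternatives and by Ddr1 and Nqo2 in 1 each, with the label term. Changes that turned in sign were those of Vcam1 (0.0816 with averaged probes; -0.18 to 0.0232 without single arrays), Pdgfrb (-0.131 without replicate 3 of 32 h and of 64 h; -0.131 to 0.227 without single arrays), Pappa (0.103) and Mcm5 (-0.112), the last 2 with the label term. The cause of these shifts was not tested. The number of arrays limits the precision, and a 1.5-fold change that did not pass may still be present.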

Other observations

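Histone genes of the replication-dependent clusters formed a group that the lists did not hold, and they were chosen after their values had been seen, so no test is given for the group. Of 40 measured genes with such a symbol, 22 rose from 32 h to 96 h (55%, against 2.81% of all genes), by 0.44 to 1.02. Of the 40, 1 was called lower and 36 changes were above 0, against 5159 of all 10211 measured genes. H4c8, a copy of the histone H4 gene, stood at 7.43 in vehicle, 7.80 at 32 h, 8.16 at 64 h and 8.82 at 96 h, and it rose by 1.02. H4c1 stood at 7.40, 7.79, 7.87 and 8.75, and H2bc12, a histone H2B gene, at 8.30, 8.55, 9.03 and 9.37. The median difference of the 40 genes from vehicle was 0.08 at 32 h, 0.16 at 64 h and 0.53 at 96 h. The median of the 78 replication and mitosis genes at 96 h was -0.05. Single histone genes differed in course. From vehicle to 96 h, H2ac15 stood at 10.43, 9.78, 9.82 and 10.39, and H2ac22 at 11.10, 10.43, 10.65 and 10.98. Both were called higher, lay below vehicle at 96 h and had both groups of array label 1 above both groups of array label 2. With the array label as a term and a straight line through the hours, 20 of the 40 rose and 0 fell, with a median of 0.39, while 0 of the 78 replication and mitosis genes rose. H2bc21, the 1 called lower (-0.57), was also the only measured gene with probes called in opposite directions, since its other probe changed by 0.68. Many histone genes are near copies of each other, so their probes can share signal and the 22 are not independent. Leaving out single arrays left 10 to 15 of them called higher.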
